A study of Mus musculus with 6 samples.

Results

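The choroid plexus genes are 10 genes of the epithelium that makes cerebrospinal fluid, Ttr, Folr1, Clic6, Kl, Enpp2, Aqp1, Otx2, Sostdc1, Slc4a5 and Prlr. They were taken by gene symbol from the 22651 genes in each deposited table, and all 10 were found in all 6 tables. The tables hold mRNA-sequencing values of telencephalon tissue from newborn mice at postnatal day 0, with 3 mice per group and 1 library per mouse. All 6 mice carried the floxed Tsc1 allele (TSC1 flox/flox). The 3 WT mice had no Cre (Emx1 +/+), and the 3 TSC1 mice had 1 copy of Emx1-cre, which drives Cre from the Emx1 locus in progenitors of the dorsal telencephalon and removes exons of Tsc1 there. Tissue that lies outside the Emx1 lineage, such as the ventral telencephalon, keeps an intact Tsc1 in this model, and whether Cre acted in choroid plexus epithelium was not measured here.

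The choroid plexus is a folded epithelium on a core of stroma and fenestrated capillaries that hangs into the brain ventricles. Its cells carry ions and water from blood to the ventricle, and they secrete carrier proteins and growth factors into the fluid. The epithelium arises from the dorsal midline of the neural tube, next to the cortical hem, and the transcription factor Otx2 is needed for its formation. It is attached to the telencephalic wall by a thin stalk, so that a dissected forebrain can hold more or less of it. In bulk tissue of this kind, fewer choroid plexus cells and less RNA per choroid plexus cell cannot be told apart.

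Between 14119365 and 17772865 expected counts, which are RSEM's estimates of the reads that came from each gene, were assigned to genes per library. At these depths 3 counts correspond to between 0.169 and 0.212 CPM (counts scaled by the size of the library). The targeted gene, Tsc1, had levels of 50.23, 31.99 and 28.42 TPM (a level per transcript length, scaled to the same total in each library) in the WT mice, in order of their replicate numbers as everywhere below, and of 27.09, 21.73 and 22.42 TPM in the TSC1 mice. All 3 TSC1 mice were below all 3 WT mice, with a log2 fold change of -0.66 (SE 0.175, adjusted p = 0.09998 by edgeR). The gene level value does not isolate the deleted exons, and cells without Cre remain in the tissue. Emx1, which marks the dorsal telencephalon and whose locus carries Cre in the TSC1 mice, was at 39.83 to 47.43 TPM in WT and 36.20 to 40.81 TPM in TSC1. Replicate 3 of each group held Y-linked transcripts and almost no Xist, and replicates 1 and 2 held Xist and almost no Y-linked transcripts, so that each group was made of 2 females and 1 male.

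Of the 10 genes, 9 had a lower fitted level in TSC1 than in WT, and the median log2 fold change was -1.46, against -0.00267 over all 13969 genes tested. None of the 10 had an adjusted p below 0.05 in the edgeR quasi-likelihood test, where 0.659% of all genes tested were called lower and 0.859% higher. At an unadjusted p below 0.05, 7 of the 10 were lower, where 8.93% of all genes were. By DESeq2, 3 of the 10 (Folr1, Aqp1 and Otx2) were called lower, where 2.21% of all genes were. By limma on log2(TPM + 1) 2 (Folr1 and Aqp1) were called, where 0.975% of all genes were, and the same 2 by edgeR with no filter on low counts, where 0.949% were. Kl and Prlr were too low to be tested by limma. With sex as a covariate in the edgeR fit, a choice made after the data were seen, 7 of the 10 were called lower, all but Kl, Enpp2 and Prlr, where 2.53% of all genes were. Each group held 1 male, so that sex and that single mouse cannot be told apart. The levels of 7 genes, Ttr, Folr1, Clic6, Kl, Aqp1, Otx2 and Sostdc1, did not overlap between the groups in TPM. In CPM 8 did not overlap, where 11.7% of all genes tested had all 3 TSC1 mice below all 3 WT mice. Most of the 10 are also in the study's own list of changed genes from these mice, so these counts are not independent evidence of a direction.

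**Figure D1:**
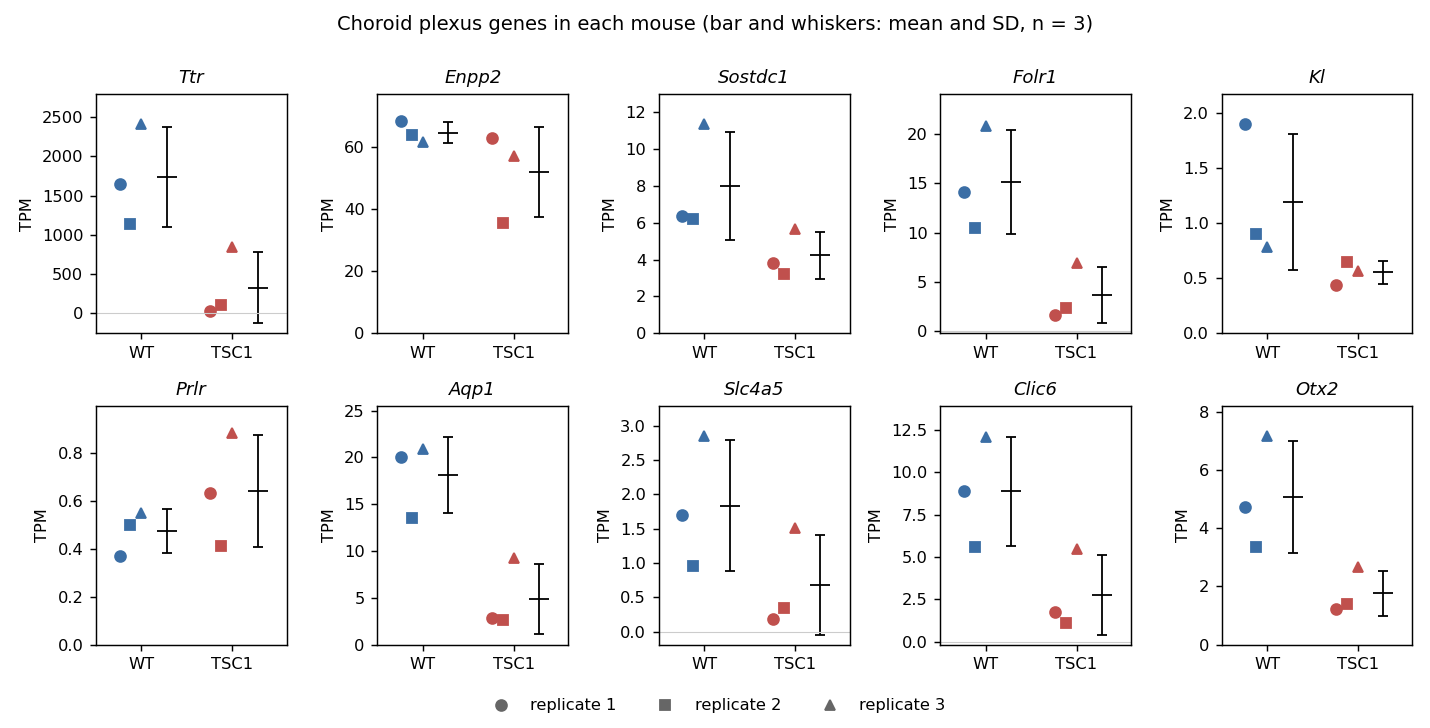
Level of each of the 10 genes in each mouse in TPM, with WT in blue and TSC1 in red, one marker shape per replicate number, and the mean ± SD (n = 3) as a bar with whiskers. In 8 genes TSC1 replicate 3 (red triangle) was the highest of the 3 TSC1 mice, and for Ttr it stood at 842.68 TPM against 23.88 and 102.39 TPM in replicates 1 and 2.

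Among the secreted proteins, Ttr (chr18:20665280-20674321), which codes for transthyretin, the carrier of thyroid hormone and retinol-binding protein, was the most abundant of the 10 genes. Its levels were 1652.38, 1142.26 and 2411.46 TPM in WT and 23.88, 102.39 and 842.68 TPM in TSC1. The groups did not overlap, but TSC1 replicate 3 lay closer in TPM to the lowest WT mouse than to the other TSC1 mice, and the highest TSC1 level was 35.3 times the lowest, where in WT it was 2.11 times. The WT mean was 1735 ± 639 TPM (SD, n = 3). The TSC1 mean, 323 ± 452 TPM (SD, n = 3), was 18.6% of it. The log2 fold change was -2.44 (SE 0.957, adjusted p = 0.220 by edgeR). Without TSC1 replicate 3 it was -4.83 (adjusted p = 0.00173 by edgeR).

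Enpp2 (chr15:54838901-54952892), which codes for autotaxin, the secreted enzyme that makes lysophosphatidic acid, was also abundant but differed much less. Its levels were 68.32, 63.82 and 61.62 TPM in WT and 62.93, 35.48 and 57.24 TPM in TSC1. TSC1 replicate 1, which was lowest of all mice for Ttr, lay within the WT range for Enpp2. The log2 fold change was -0.34 (SE 0.171, adjusted p = 0.331 by edgeR), and -0.14 without TSC1 replicate 2. Enpp2 is also made by oligodendrocyte lineage cells and by vessel and meningeal cells, whose part in its level was not tested.

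Sostdc1 (chr12:36314139-36318452), which codes for a secreted antagonist of BMP and Wnt signals, had 6.38, 6.23 and 11.38 TPM in WT and 3.83, 3.22 and 5.64 TPM in TSC1. The groups did not overlap, and replicate 3 was the highest in each. The TSC1 mean was 52.9% of the WT mean, with a log2 fold change of -0.93 (SE 0.314, adjusted p = 0.168 by edgeR), and -0.58 without WT replicate 3.

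Of the receptor genes, Folr1 (chr7:101858331-101870788) codes for folate receptor alpha, through which the epithelium moves folate into the cerebrospinal fluid. Its levels were 14.07, 10.44 and 20.84 TPM in WT and 1.67, 2.34 and 6.91 TPM in TSC1. All 3 TSC1 mice were below all 3 WT mice, with replicate 3 again the highest of each group. The TSC1 mean was 24.1% of the WT mean, with a log2 fold change of -2.06 (SE 0.458, adjusted p = 0.0637 by edgeR), and the change was called without TSC1 replicate 3 (-2.95, adjusted p = 0.00297 by edgeR).

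Kl (chr5:150952607-150993817), which codes for klotho, the co-receptor of fibroblast growth factor 23, was a low gene with 56, 30 and 21 counts in WT and 12, 17 and 17 counts in TSC1. Its levels were 1.90, 0.90 and 0.78 TPM in WT and 0.44, 0.65 and 0.57 TPM in TSC1. The groups did not overlap, but the order of the mice was not that of Ttr, since WT replicate 3 was the lowest WT mouse and TSC1 replicate 3 the middle TSC1 mouse. The log2 fold change was -1.12 (SE 0.377, adjusted p = 0.169 by edgeR), and it ranged from -1.32 to -0.64 with 1 mouse left out, nearest to 0 without WT replicate 1, the highest mouse.

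Prlr (chr15:10177238-10349180), which codes for the prolactin receptor, was near the lower end of what these libraries resolve. It had 19, 32 and 30 counts in WT and 35, 15 and 38 counts in TSC1. The levels were 0.37, 0.50 and 0.55 TPM in WT and 0.63, 0.41 and 0.88 TPM in TSC1, so that the groups overlapped. It was the one gene of the 10 whose mean was higher in TSC1. The log2 fold change was 0.19 (SE 0.348, adjusted p = 0.810 by edgeR), and its sign turned without WT replicate 1 (-0.02).

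Among the transport genes, Aqp1 (chr6:55336432-55348555) codes for aquaporin 1, the water channel of the ventricle-facing membrane. Its levels were 20.02, 13.48 and 20.87 TPM in WT and 2.81, 2.67 and 9.21 TPM in TSC1. The groups did not overlap, and TSC1 replicates 1 and 2 were almost equal. The TSC1 mean was 27.0% of the WT mean, with a log2 fold change of -1.89 (SE 0.415, adjusted p = 0.0610 by edgeR), and without TSC1 replicate 3 it was called at -2.76 (adjusted p = 0.000598 by edgeR).

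Slc4a5 (chr6:83219828-83304945), which codes for a sodium bicarbonate cotransporter, had 50, 32 and 77 counts in WT and 5, 9 and 45 counts in TSC1. Its levels were 1.70, 0.96 and 2.85 TPM in WT and 0.18, 0.35 and 1.51 TPM in TSC1. TSC1 replicate 3 lay above WT replicate 2, so that the groups overlapped. The log2 fold change was -1.39 (SE 0.642, adjusted p = 0.294 by edgeR), and it was -2.80 without TSC1 replicate 3 (adjusted p = 0.0255 by edgeR) and -0.91 without WT replicate 3.

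Clic6 (chr16:92485736-92541243), which codes for a member of the chloride intracellular channel family, had 8.91, 5.62 and 12.05 TPM in WT and 1.76, 1.11 and 5.46 TPM in TSC1. TSC1 replicate 3 was just below WT replicate 2. The TSC1 mean was 31.3% of the WT mean, with a log2 fold change of -1.67 (SE 0.494, adjusted p = 0.124 by edgeR). Without TSC1 replicate 3 the change was called at -2.65 (adjusted p = 0.00393 by edgeR).

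Otx2 (chr14:48657677-48673819), the homeodomain transcription factor of the group, had 46, 37 and 64 counts in WT and 11, 12 and 26 counts in TSC1. Its levels were 4.73, 3.35 and 7.18 TPM in WT and 1.22, 1.40 and 2.66 TPM in TSC1. The groups did not overlap and the mice stood in the order of Ttr. The TSC1 mean was 34.6% of the WT mean, with a log2 fold change of -1.52 (SE 0.389, adjusted p = 0.0892 by edgeR), and without TSC1 replicate 3 it was called at -1.97 (adjusted p = 0.0278 by edgeR).

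To show the sequence in front of members whose levels went with that of Ttr, the 250 bases before a RefSeq start (GRCm38.p6, the build of the files) are printed for Otx2, Aqp1 and Slc4a5. They run 5′ to 3′ on the strand of the gene, and capitals mark a TATAAA or its reverse complement TTTATA. The Otx2 window is chr14:48667645-48667894 on the minus strand and lies in an intron of the longer Otx2 transcript of GENCODE. The Aqp1 window is chr6:55336049-55336298 on the plus strand and holds no GENCODE gene. The Slc4a5 window is chr6:83237125-83237374 on the plus strand, in an intron of the longer Slc4a5 transcript, and it overlaps an exon of a non-coding Slc4a5 transcript.
Otx2: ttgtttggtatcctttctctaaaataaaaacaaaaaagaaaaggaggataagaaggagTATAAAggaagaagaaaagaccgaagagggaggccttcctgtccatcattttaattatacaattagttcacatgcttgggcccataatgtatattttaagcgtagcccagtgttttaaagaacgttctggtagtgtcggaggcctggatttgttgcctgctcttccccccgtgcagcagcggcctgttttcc
Aqp1: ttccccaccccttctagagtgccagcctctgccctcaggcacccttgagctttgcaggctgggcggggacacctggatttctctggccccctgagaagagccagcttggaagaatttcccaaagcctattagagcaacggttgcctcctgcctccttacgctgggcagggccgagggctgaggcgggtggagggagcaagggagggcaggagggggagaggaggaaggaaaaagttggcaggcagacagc
Slc4a5: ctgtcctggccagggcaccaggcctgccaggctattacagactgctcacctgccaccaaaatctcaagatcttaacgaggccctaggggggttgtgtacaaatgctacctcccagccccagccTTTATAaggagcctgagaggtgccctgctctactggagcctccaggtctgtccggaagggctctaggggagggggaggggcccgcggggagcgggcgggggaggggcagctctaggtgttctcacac
The RefSeq promoter table held 10 such windows for 5 of the 10 genes, Kl, Aqp1, Otx2, Slc4a5 and Prlr. TATAAA on either strand stood in 2 of these 10 windows, the ones of Otx2 and Slc4a5 printed above, where 12.4% of all 32851 windows held it. In the Otx2 window it ran from 192 to 187 bases before the start, and in the Slc4a5 window its reverse complement ran from 127 to 122 bases before the start. TAATCC, the core letters that OTX proteins bind, with its reverse complement GGATTA, stood in 1 of the 10 windows, before another start of Otx2 itself, where 6.25% of all windows held it. The motifs do not overlap each other, and a match is a description of the letters only.

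The mice stood in nearly one order across most of the genes. Ttr, Folr1 and Otx2 had the same order from low to high, TSC1 replicates 1, 2 and 3 followed by WT replicates 2, 1 and 3. Over all genes tested, 0.401% had the order of Ttr. Clic6, Aqp1 and Sostdc1 differed from it only in that TSC1 replicate 2 was below TSC1 replicate 1, and Slc4a5 only in that TSC1 replicate 3 was above WT replicate 2. TSC1 replicate 3 was the highest TSC1 mouse and WT replicate 2 the lowest WT mouse in these 7 genes, where both held in 6.64% of all genes tested. Kl, Enpp2 and Prlr each had another order.

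Likeness to the mean profile of the 10 genes was described by Pearson's r of log2(TPM + 1) over the 6 mice, which share libraries and fall into 2 groups, so that no test was made. It was 0.995 for Folr1, 0.992 for Aqp1, 0.984 for Clic6, 0.972 for Otx2, 0.970 for Ttr, 0.955 for Slc4a5 and 0.921 for Sostdc1. It was 0.607 for Kl, 0.572 for Enpp2 and -0.063 for Prlr. Each gene is itself part of that profile, which raises its r.

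**Figure D2:**
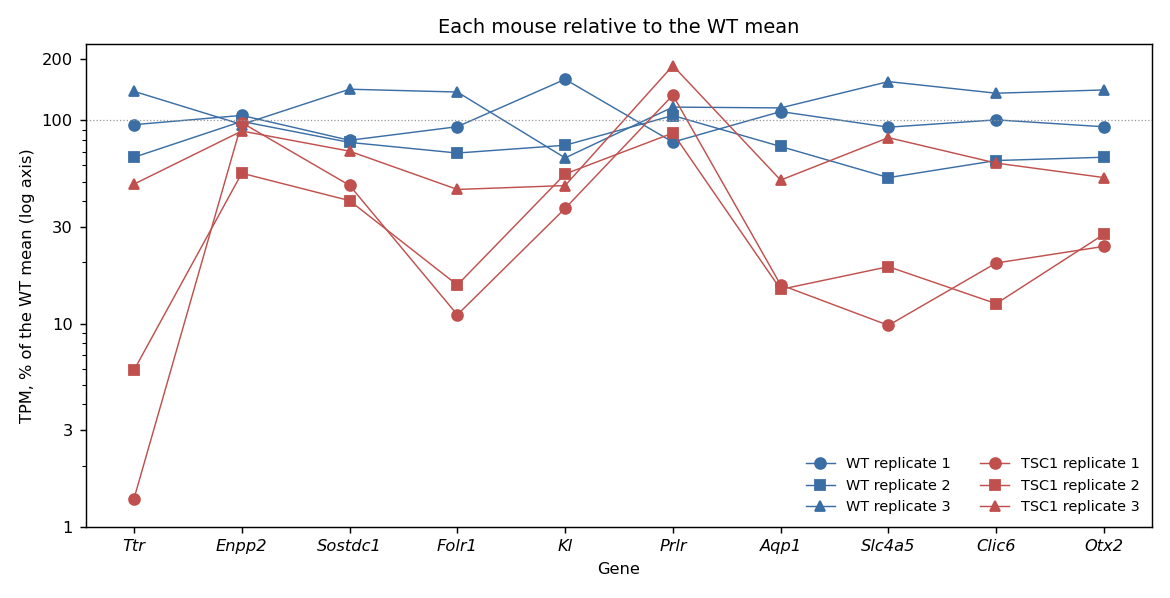
TPM of each gene in each mouse as a percentage of the WT mean, on a log axis, with WT in blue and TSC1 in red. TSC1 replicates 1 and 2 lay lowest for Ttr, Folr1, Aqp1, Slc4a5, Clic6 and Otx2, TSC1 replicate 3 lay between them and the WT mice or among the WT mice, while at Enpp2 TSC1 replicate 1 was among the WT mice and TSC1 replicate 3 just below them, and the lines crossed at Prlr.

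The 10 genes did not keep one ratio to each other. Whether the other genes were read in the choroid plexus alone was not measured here. Ttr had 106, 98.2 and 104 counts per count of Folr1 in WT, and the 95% exact binomial intervals of these ratios, which cover counting error only, overlapped. In TSC1 replicate 3 the ratio was 111 (84.2 to 148), inside the WT intervals. In TSC1 replicates 1 and 2 it was 12.5 (6.95 to 24.7) and 40.7 (24.5 to 73.2), below all WT intervals.

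The same held against Otx2. Ttr had 244, 239 and 235 counts per Otx2 count in WT and 221 (151 to 339) in TSC1 replicate 3, against 13.6 (7.41 to 27.9) and 50.9 (28.9 to 99.1) in TSC1 replicates 1 and 2. Per Aqp1 count it was 35.7, 36.7 and 49.9 in WT and 39.4 (33.4 to 46.7) in TSC1 replicate 3, against 3.66 (2.57 to 5.30) and 16.5 (11.8 to 23.7). In TSC1 replicates 1 and 2, Ttr was thus further below WT than Folr1, Otx2 and Aqp1 were.

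Per Clic6 count, Ttr stood at 58.8, 64.5 and 63.4 in WT, at 48.7 (40.6 to 59.0) in TSC1 replicate 3, and at 4.29 (2.95 to 6.38) and 29.1 (18.9 to 47.3) in TSC1 replicates 1 and 2. Against Enpp2 all 3 TSC1 mice lay below WT, with 0.139, 1.06 and 5.38 Ttr counts per Enpp2 count where WT had 8.89, 6.58 and 14.4.

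**Figure D3:**
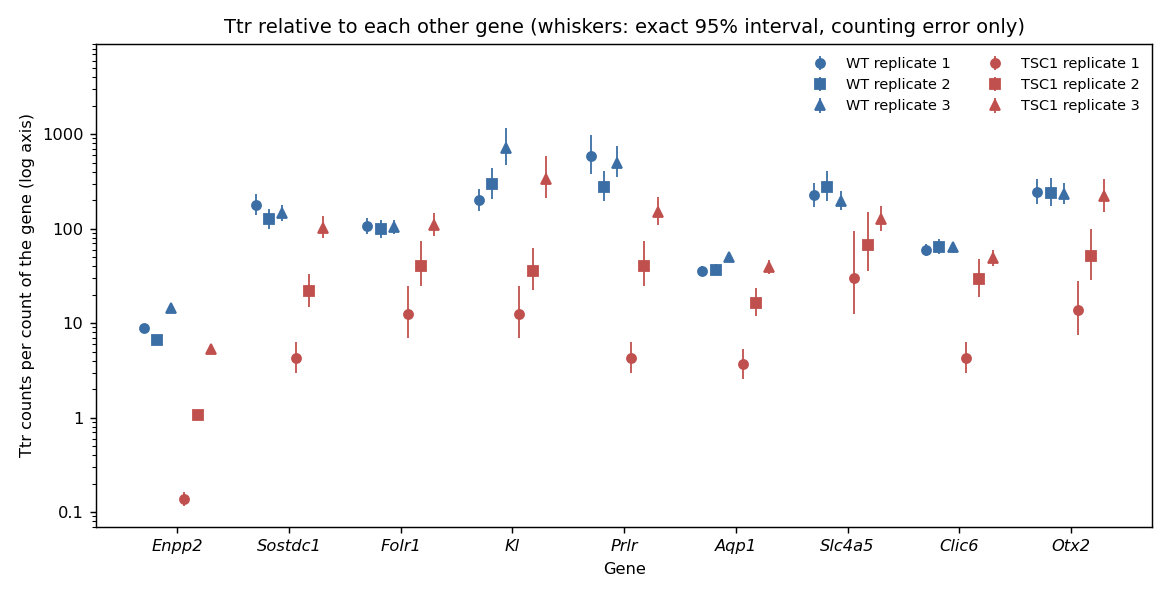
Counts of Ttr per count of each of the other 9 genes in each mouse, on a log axis, with exact 95% intervals of counting error as whiskers. TSC1 replicate 1 (red circle) was lowest for every gene, and TSC1 replicate 3 (red triangle) reached the WT intervals for Folr1, Aqp1 and Otx2 but not for Enpp2.

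The summed level of the 10 genes averaged 1859 ± 655 TPM (SD, n = 3) over the WT mice. Over the TSC1 mice it averaged 394 ± 467 TPM (SD, n = 3). Ttr set most of the sum in all WT mice. Ttr made up 92.9%, 91.6% and 94.6% of it there, against 24.0%, 68.3% and 90.3% in TSC1. Enpp2 made up 3.84%, 5.12% and 2.42% in WT, and 63.3%, 23.7% and 6.14% in TSC1. TSC1 replicate 1 was therefore the one mouse where Enpp2 and not Ttr was the largest part. Without Ttr, the sum of the other 9 genes was 61.2%, 38.6% and 73.1% of its WT mean in the TSC1 mice. Enpp2 was the largest part of that sum in every mouse. It made up 54.1%, 60.6% and 44.6% in WT and 83.4%, 74.5% and 63.5% in TSC1. The mice did not stand in the order of Enpp2, however. WT replicate 3 was the highest mouse of the sum without Ttr, at 138.12 TPM, but the lowest WT mouse for Enpp2, at 61.62 TPM.

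Since replicate 3 was the male of each group, levels were also set side by side within sex. The male TSC1 mouse had 34.9% of the Ttr level of the male WT mouse, 33.2% of Folr1, 44.1% of Aqp1, 45.3% of Clic6, 37.0% of Otx2, 49.6% of Sostdc1 and 53.0% of Slc4a5. In the 2 females per group, the mean TSC1 level was 4.52% of the mean WT level for Ttr, 16.4% for Folr1, 16.4% for Aqp1, 19.8% for Clic6, 32.4% for Otx2, 55.9% for Sostdc1 and 19.9% for Slc4a5. For Kl the levels were 73.1% in the males and 38.9% in the females, and for Enpp2 92.9% and 74.5%. Of the 10 genes, 9 thus had lower levels in TSC1 in both sexes, a pattern whose share over all genes was not counted. Prlr had higher TPM in both, at 160.0% and 119.5%. Its counts in the females were 19 and 32 in WT and 35 and 15 in TSC1. The estimated transcript length behind its TPM ran from 7149 to 10278 bases between mice. Fitted on the females alone, a choice made after the data were seen, edgeR called 6 of the 10 genes lower, where 2.04% of all genes were called lower. These were Ttr (-4.49, adjusted p = 0.00046), Folr1, Clic6, Aqp1, Otx2 and Slc4a5, the same 6 as without TSC1 replicate 3 alone, where 3.06% of all genes were called lower.

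Other genes of the choroid plexus epithelium were taken from lists of transport, barrier and secreted or receptor genes. Of 32 listed genes, 31 were in the tables and 27 passed the filter on low counts, and none was called in either direction by edgeR. At an unadjusted p below 0.05, 13 were lower and 1, the bicarbonate transporter gene Slc4a10, was higher, where 8.93% of all genes tested were lower and 9.04% higher. These shares also apply to the counts at that threshold in the lists that follow. The median log2 fold change was -0.39. Which cells the transcripts of these genes came from, Slc4a10 among them, was not measured. By DESeq2 5 were called lower, Kcne2, Car12, Cldn2, Igfbp2 and 1500015O10Rik, where 2.21% of all genes were. Without TSC1 replicate 3 edgeR called 14 lower, where 3.06% of all genes were, and with sex as a covariate 8, where 2.53% were.

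Of the transport list, 13 of 13 genes were tested, with 5 lower and 1 higher at an unadjusted p below 0.05. Kcne2, a potassium channel subunit, had 10.69, 3.41 and 10.63 TPM in WT and 1.25, 0.48 and 3.02 TPM in TSC1, without overlap. Car12, a carbonic anhydrase, had 8.60, 5.13 and 10.40 TPM in WT and 2.48, 2.56 and 4.06 TPM in TSC1, also without overlap. Slc12a2, the sodium, potassium and chloride cotransporter, had 41.19, 41.81 and 40.41 TPM in WT and 46.43, 40.70 and 44.02 TPM in TSC1. Slc12a2, Slc4a2 and Atp1b1 are read in many brain cells, and their log2 fold changes were 0.06 (SE 0.0692), -0.09 (SE 0.0993) and 0.08 (SE 0.0785).

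Of the barrier list, 4 of 5 genes were tested and 2 were lower at an unadjusted p below 0.05, Cldn2 and Krt18. Cldn2, the claudin of leaky epithelia, had 2.97, 2.06 and 3.61 TPM in WT and 0.31, 0.45 and 1.81 TPM in TSC1. Krt18, an epithelial keratin, had 34, 24 and 41 counts in WT and 1, 1 and 21 counts in TSC1. In both genes TSC1 replicate 3 was near the lowest WT mouse and the other TSC1 mice far below it. The other 2 tested did not have lower levels. Cldn3 had 10.79, 11.10 and 12.55 TPM in WT and 14.45, 15.36 and 14.00 TPM in TSC1, with all TSC1 mice above all WT mice (log2 fold change 0.31, SE 0.152, adjusted p = 0.319 by edgeR), and Cldn1 had 9.99, 5.84 and 8.83 TPM in WT and 8.04, 8.45 and 9.11 TPM in TSC1.

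Of the secreted and receptor list, 10 of 14 genes were tested and 6 were lower at an unadjusted p below 0.05. Tmem72, a membrane protein of the epithelium, had 42, 31 and 50 counts in WT, 0 in TSC1 replicates 1 and 2, and 26 in TSC1 replicate 3. Igf2, a growth factor that the choroid plexus secretes and that meninges and vessels also make, had 301.40, 341.35 and 226.46 TPM in WT and 190.64, 117.98 and 209.04 TPM in TSC1. Its groups did not overlap, and its log2 fold change was -0.77 (SE 0.202, adjusted p = 0.0926 by edgeR).

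**Figure D4:**
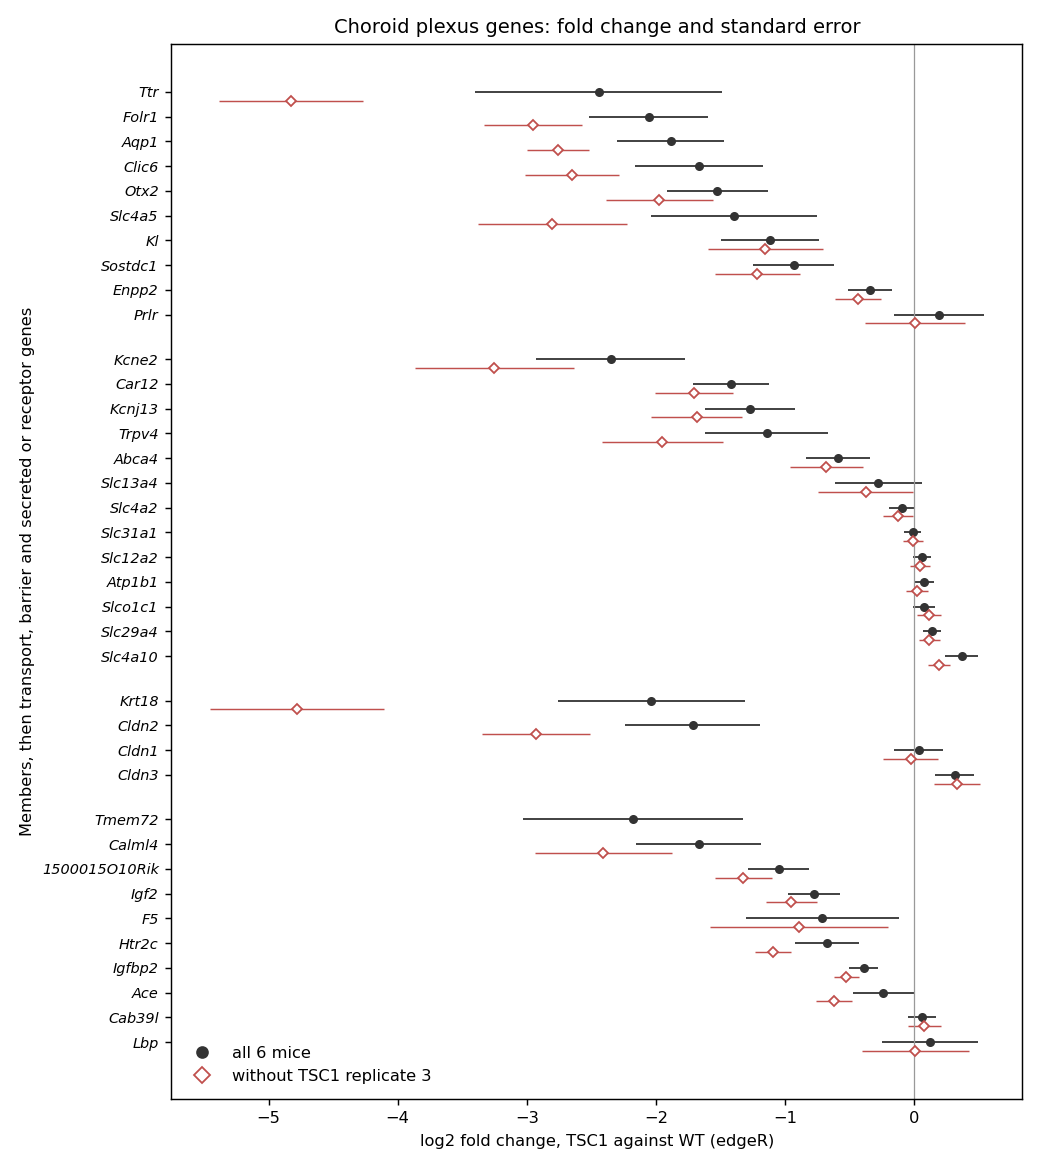
Log2 fold change of TSC1 against WT with its standard error by edgeR for the 10 genes and the other choroid plexus genes tested, from all 6 mice (filled circles) and without TSC1 replicate 3 (open diamonds). Ttr stood at -2.44 and -4.83, Slc12a2 near 0 in both, and the open diamond of Tmem72 is left out because its remaining TSC1 counts were 0.

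Genes of the dorsal midline and cortical hem, where choroid plexus epithelium arises, were not called by edgeR in either direction in 9 of 9 tested. At an unadjusted p below 0.05, 2 were lower, Msx1 and Bmp4. Msx1, a homeobox gene of the midline, had 10.90, 8.94 and 6.39 TPM in WT and 6.33, 3.12 and 4.73 TPM in TSC1. Lmx1a, which defines the hem and the choroid plexus, was near the lower limit, at 1.15, 0.46 and 0.91 TPM in WT and 0.73, 0.59 and 0.73 TPM in TSC1, and its groups overlapped.

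Among 890 other genes whose levels varied by at least 1 on the log2 scale, the 10 most like the mean profile were Cldn2, Tmem72, Krt18, Drd2, Crhbp, Dlx6, Six3, Ugt1a6b, Klhl13 and Ntn1, with r of at least 0.983 over the 6 mice. The first 3 are in the choroid plexus lists. Drd2, a dopamine receptor of the striatum, had 8.39, 6.87 and 10.91 TPM in WT and 0.75, 1.05 and 4.12 TPM in TSC1. Dlx6, a homeobox gene of the ventral telencephalon, had 19.57, 15.85 and 21.17 TPM in WT and 2.56, 2.89 and 11.27 TPM in TSC1. Six3, a forebrain homeobox gene, had 5.31, 4.80 and 7.30 TPM in WT and 0.87, 1.34 and 4.52 TPM in TSC1. In all of these TSC1 replicate 3 lay between the other TSC1 mice and WT, as it did for Ttr. The genes were picked for likeness to the mean profile over the same 6 mice. That position therefore came with the choice and is no separate observation.

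Dlx1, another homeobox gene of the ventral telencephalon, was the one gene in all the marker lists that edgeR called. It is from the list of genes that define the telencephalon, the sampled tissue itself. Its levels were 146.44, 124.56 and 145.45 TPM in WT and 82.56, 85.85 and 97.01 TPM in TSC1 (log2 fold change -0.68, SE 0.0957, adjusted p = 0.0183 by edgeR). The part of the amount of ventral tissue in the result for the choroid plexus genes was not tested.

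None of the summed marker lists of other tissues that a dissected telencephalon can hold stood in the order of Ttr over the 6 mice. That order was held by 0.401% of all genes tested and by 3 of the 10 choroid plexus genes, so its absence from a sum says little. The 10 meningeal genes in the tables summed to 915 to 1643 TPM in WT and 496 to 1375 TPM in TSC1, with TSC1 replicate 2 the lowest of all mice and TSC1 replicate 1 within the WT range. Ptgds set most of that sum, with means of 953 TPM in WT and 794 TPM in TSC1. All 10 had a lower fitted level in TSC1 (median log2 fold change -0.37), as 7079 of all 13969 genes tested did. At an unadjusted p below 0.05, 1 was lower, Col3a1 (-0.86, adjusted p = 0.121 by edgeR). The part of meninges in the result for the choroid plexus genes was not tested. The 10 ependymal genes in the tables summed to 37.7 to 59.3 TPM in WT and 39.8 to 46.9 TPM in TSC1. Within each group their sum had the order of Ttr, with replicate 3 the highest of both groups, but WT replicate 2 was the lowest of all 6 mice. Of the 8 ependymal genes tested, 6 had a lower fitted level in TSC1 and 2 a higher one. At an unadjusted p below 0.05, 1 was lower, Mia (log2 fold change -0.76, SE 0.333, adjusted p = 0.275 by edgeR). Foxj1, which defines motile ciliated cells, had overlapping groups, at 14.72 to 19.02 TPM in WT and 13.68 to 17.80 TPM in TSC1. The part of ependymal cells in the result for the choroid plexus genes was not tested.

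The 8 endothelial genes summed to 206 to 271 TPM in WT and 195 to 252 TPM in TSC1, and single genes of the list differed in both directions. At an unadjusted p below 0.05, 4 of the 8 were lower, Cldn5, Tek, Cdh5 and Kdr, and 1, the glucose transporter gene Slc2a1, was higher. The adjusted p by edgeR was 0.0670 for Cldn5, 0.0577 for Tek and 0.0554 for Slc2a1, near those of Folr1 and Aqp1, with log2 fold changes of -0.49, -0.59 and 0.72. Plvap, which marks fenestrated capillaries such as those of the choroid plexus, had 4.38, 5.39 and 3.54 TPM in WT and 5.20, 5.47 and 5.49 TPM in TSC1. The part of vessels in the result for the choroid plexus genes was not tested.

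The 5 red blood cell genes in the tables summed to 1694, 2044 and 5566 TPM in WT and 1505, 1291 and 1783 TPM in TSC1, so that WT replicate 3, the highest mouse for Ttr, was also the highest in blood genes. All 4 that were tested were lower in TSC1 at an unadjusted p below 0.05, with adjusted p from 0.141 to 0.268 by edgeR. The part of blood in the result for the choroid plexus genes was not tested.

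Ttr is also read in liver and, with Otx2, in pigment epithelium of the eye. The 5 liver and plasma genes summed to 1.09 to 1.68 TPM in WT and at most 2.39 TPM in TSC1, with Alb at most 0.09 TPM in any mouse. The 5 pigment cell genes in the tables summed to 2.15 to 2.91 TPM in WT and 3.64 to 5.08 TPM in TSC1, higher in all 3 TSC1 mice, with Rpe65 at 0 in all 6 mice. Dct set most of that sum, with means of 1.63 TPM in WT and 3.52 TPM in TSC1. It was the only 1 tested (log2 fold change 1.09, SE 0.273, adjusted p = 0.0861 by edgeR). The means of Pmel, Tyr and Tyrp1 were each below 1 TPM in both groups. The 8 diencephalic genes in the tables summed to 8.61 to 13.98 TPM in WT and 5.97 to 11.64 TPM in TSC1, and the 7 oligodendrocyte lineage genes to 224 to 286 TPM and 206 to 229 TPM.

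**Figure D5:**
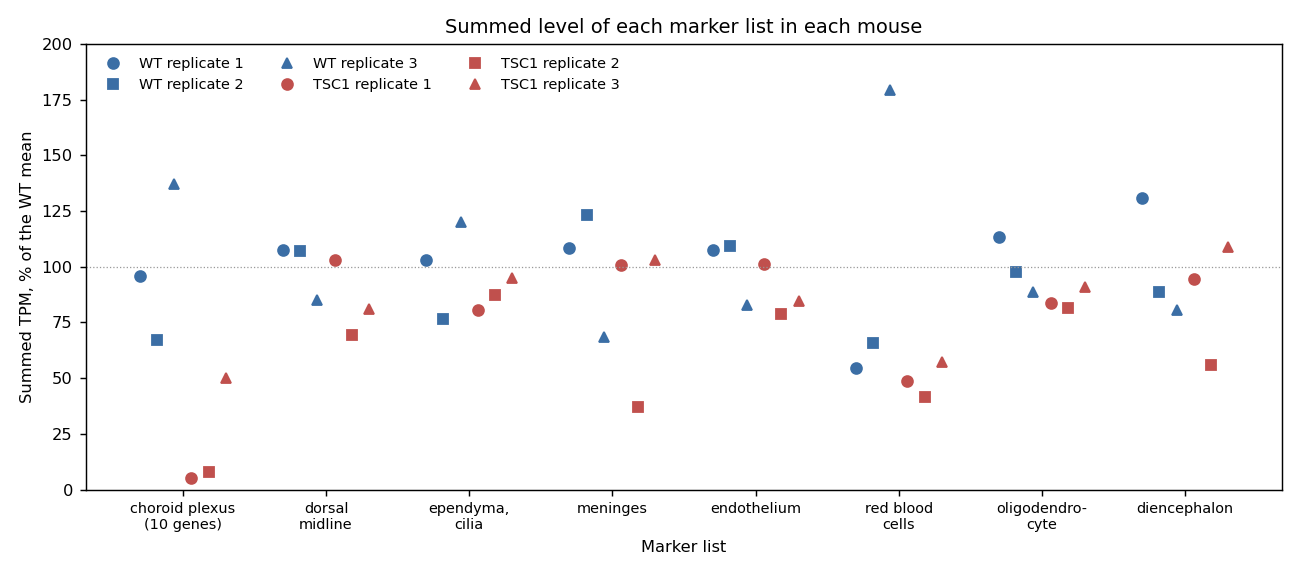
Summed TPM of the 10 choroid plexus genes and of 7 other marker lists in each mouse, as a percentage of the WT mean of that list. The choroid plexus sum was 5.35% and 8.07% of the WT mean in TSC1 replicates 1 and 2 and 50.2% in TSC1 replicate 3 (61.2%, 38.6% and 73.1% without Ttr, which made up 91.6% to 94.6% of it in WT), where the ependymal sum was 80.6%, 87.4% and 95.1%. In the TSC1 mice the red blood cell sum was 48.5%, 41.6% and 57.5%. The meningeal sum was 101%, 37.2% and 103%, and the diencephalic sum 94.5%, 55.9% and 109%. The dorsal midline, endothelial and oligodendrocyte sums lay between 69.4% and 103.2% there. Of the sum without Ttr, Enpp2 made up 44.6% to 60.6% in WT and 63.5% to 83.4% in TSC1.

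With 3 mice per group a single value tested by exact permutation could not go below p = 0.1, and p-values over so few mice rest on the shared estimate of spread across genes. The number of choroid plexus genes called moved from 0 with all 6 mice to 6 of 10 without TSC1 replicate 3, where 3.06% of all genes were called lower. It was 0 when any other mouse was left out, where 0.0283% to 1.19% of all genes were called lower, and a count of 0 against so small a background says nothing about the 10 genes.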

How the data were processed

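Gene tables of mRNA-sequencing from 6 telencephalon samples, 3 WT and 3 TSC1, were used, with groups from the genotype labels and replicate numbers from the titles. Paired reads were trimmed by the authors, mapped with MapSplice2 (mm10) and assigned to RefSeq genes by RSEM; the submitters' processing notes name FastQC and RSEM 1.2.12. The deposited expected counts are RSEM estimates without normalization, and all 60 values of the 10 genes were whole. The deposited TPM values are levels per effective length scaled within each sample by RSEM. The deposited FPKM values, also from RSEM, entered one alternative of the summed level and no test.

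Rounded expected counts entered the quasi-likelihood fit of edgeR 4.0.16 (R 4.3.3, with TMM, filterByExpr and Benjamini-Hochberg adjustment over 13969 genes), with adjusted p below 0.05 as a call. On simulated counts with 200 changed genes of 13969 at a log2 fold change of 1.5, edgeR recovered 93%, and 4.62% of its calls were false. In the mice, Ttr, Folr1, Clic6, Aqp1 and Otx2 had log2 fold changes of -2.44, -2.06, -1.67, -1.89 and -1.52. Their SE ran from 0.389 to 0.957, and edgeR called none of them with all 6 mice. Recovery at such a spread was not tested. The count intervals are exact Clopper-Pearson intervals at 95% (scipy 1.17.1). Alternatives were RLE and upper-quartile factors, DESeq2 1.42.0, limma 3.58.1 on log2(TPM + 1), no filter, at least 10 counts in every sample, effective lengths as offsets, a replicate block, each mouse left out, and, added after the data were seen, the females alone and sex as a covariate. Nothing shows that the mice of a group came from separate litters, so p-values measure the spread between these samples. The 10 genes and all lists were chosen with earlier results of these data known. All 10 were named, with Tsc1, any called gene of a list and the 10 genes most like the mean profile (among genes that reached a TPM of 1 in 3 or more samples); other listed genes shown as examples were chosen after their values were seen. Positions are from GENCODE M21 (GRCm38), promoter windows from RefSeq. The summed level of the telencephalic list is not reported here.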

Additional observations from a re-analysis of the deposited data

How the results depend on the processing

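Calls of lower genes depended on the mice and on the test. By DESeq2, 3 of the 10 choroid plexus genes, 5 of the other choroid plexus genes and 299 of all genes were called lower, by limma 2 and 1 of the former, and without a filter on low counts 2, 3 and 171. Leaving out 1 mouse gave 0 to 6, 0 to 14 and 4 to 431 calls, the highest each time without TSC1 replicate 3, and the females alone, chosen after seeing the data, gave 6, 10 and 285. Sex as a covariate, also added after seeing the data, gave 7, 8 and 354. RLE and upper-quartile factors, the stricter count minimum and effective lengths left the 10 genes at 0 calls, with Slc4a5 not tested under the stricter count minimum. Whether the replicate numbers pair the mice is not known. The paper used Cre-negative littermates as controls, but the labels do not say which mice shared a litter. Same-numbered mice had deviations with r of 0.325, -0.162 and 0.393. Differently numbered mice were not compared, so these values cannot decide it. The replicate block, which gave 6, 4 and 278 calls (1.99% of all genes), carries no pairing that the labels give, though replicate 3 is the male of each group. The log2 ratio of the summed TPM, -2.24, was -0.795 without Ttr, -3.60 in the females alone, and -3.90 to -1.78 with 1 mouse left out. Without Ttr, Enpp2 was the largest part of the sum in every mouse. Prlr, at 0.19, reversed to -0.0174 without WT replicate 1 and reached 0.467 without TSC1 replicate 2. The difference in share of the sum, TSC1 less WT, became with Ttr left out -7.11 percentage points for Folr1, -3.46 for Clic6, -0.114 for Kl, -8.07 for Aqp1, -1.54 for Otx2, -0.369 for Sostdc1, -0.557 for Slc4a5 and 0.502 for Prlr, where all were above 0 with Ttr included. For Enpp2 it was 20.7 percentage points with Ttr left out and 27.3 with Ttr included. The shares add up to the whole, so the other shares together fall as that of Enpp2 rises. Of the 10 most similar genes, 6 were shared when deviations within groups were used. Apart from what was left out, the cause was not tested. Depth limits most the lowest counts, such as the 5 and 9 of Slc4a5 in TSC1 replicates 1 and 2.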
